A study of Mus musculus with 3 samples.

Results

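The actin genes Acta1, Actc1, Acta2, Actg2, Actb and Actg1 and the tropomyosin genes Tpm1, Tpm2, Tpm3 and Tpm4 were described in 3 mouse myoblast lines. These genes were taken by name as members of 2 protein families of the thin filament, not by their values, and they are 10 of the 35562 genes listed, obtained by summing transcript values per gene. All 3 libraries share a single condition: edited Dmdmdx; Pax7-nGFP myoblasts, named lines 66, 67 and 72. The cells carried the mdx mutation of the dystrophin gene, corrected by CRISPR/Cas9 editing, and a Pax7 reporter that places green fluorescent protein in the nucleus. They came from iPSCs injected into mouse blastocysts whose own Pax7-expressing cells could be ablated by diphtheria toxin A through a tamoxifen-inducible Cre. Satellite cells, the muscle stem cells, were sorted from the chimeras and expanded into myoblast lines, which were sorted again before RNA extraction. Whether the host of each line received tamoxifen is not given in the labels used here, and the study's text gives the age of the chimeras at harvest only as a lower limit in weeks. It describes verified editing of 1 iPSC clone and of the myoblast lines examined. Unedited and wild-type myoblasts were not analysed here, so every comparison is between genes, between transcripts of a gene, or between lines of 1 library each.

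Actin monomers polymerize into the filaments that serve as tracks for myosin. Vertebrates make muscle actins, which build the contractile thin filaments of skeletal (Acta1), cardiac (Actc1) and smooth muscle (Acta2 in vessels, Actg2 in gut), and cytoplasmic actins (Actb and Actg1), which build the cortex and stress fibers of every cell. Developing skeletal muscle is known to use the cardiac gene Actc1 alongside Acta1, and cultured myoblasts are known to use Acta2. Tropomyosins are coiled-coil dimers that lie along the actin filament and, in muscle, move with troponin to open the myosin binding sites. Each tropomyosin gene is spliced in several ways. A first coding exon 1a, from the upstream promoter, gives the long proteins, exon 1b from an internal promoter gives the short ones, and the last coding exon is 9a in striated muscle, 9d in smooth muscle and nonmuscle cells, and 9c mostly in brain.

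The libraries held between 66972426 and 73274315 estimated counts, and 8428 genes reached a mean of at least 10 TPM, a level corrected for transcript length and library size. The labelled cell type was checked against marker lists. All 6 myoblast markers were at 10 TPM or more in every line. Markers of differentiated skeletal muscle were present at the same time, with 5 of 6 at 10 TPM or more in every line and a summed level of 1293 TPM in line 66, 1820 TPM in line 67 and 2181 TPM in line 72. Of the 6 heart markers, 5 were below 1 TPM in every line, and Nkx2-5 and Nppa were listed at 0. Of the 6 smooth muscle and pericyte markers, Rgs5 alone reached 10 TPM in every line, and the smooth muscle myosin Myh11 was between 0.0288 and 0.0550 TPM. Of the 6 fibroblast markers, 5 were below 1 TPM in every line, with Lum and Dpt listed at 0. All 4 endothelial markers and 2 of the 3 blood markers were also below 1 TPM in every line.

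The actin genes code for almost the same protein but differ at many silent positions, which is what allows reads to be assigned to one of them. The first 45 coding bases are shown because the start of the protein is where muscle and cytoplasmic actins differ most. Each is given 5′ to 3′ from the start codon, with capitals at bases that differ from Acta1 at the same distance from the stop codon. Actg2, Actb and Actg1 are shorter than the other genes, so their start codons stand opposite later codons of Acta1 and appear in capitals.
Acta1: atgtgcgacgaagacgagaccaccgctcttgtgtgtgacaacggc
Actc1: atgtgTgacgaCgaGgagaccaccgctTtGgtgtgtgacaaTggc
Acta2: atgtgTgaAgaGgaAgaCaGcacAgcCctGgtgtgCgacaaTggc
Actg2: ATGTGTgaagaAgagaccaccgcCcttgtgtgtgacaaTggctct
Actb: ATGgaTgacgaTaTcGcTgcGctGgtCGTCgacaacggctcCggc
Actg1: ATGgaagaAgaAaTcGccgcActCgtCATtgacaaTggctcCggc

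These windows lie on the minus strand in the first coding exon, at chr8:123893653-123893697 for Acta1, chr2:114051987-114052031 for Actc1, chr19:34252509-34252553 for Acta2, chr6:83527397-83527441 for Actg2, chr5:142905642-142905686 for Actb and chr11:120348047-120348091 for Actg1 in build GRCm38. Over the whole coding sequence, Acta1 and Actc1 had 86.3% of bases in common, Actb and Actg1 88.6%, and Actc1 and Actg1 81.8%. At the length of 31 bases, 79.5% of the words of Actb occurred in no other listed gene, against 95.8% for Actg1, 96.3% for Acta1, 98.8% for Acta2 and 99.2% for Actc1. Reads could therefore be told apart for nearly all of each muscle actin, and Actb shared the most with other genes, 15.2% of its words with Lrrc58, which was at 34.0 to 40.1 TPM.

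The cytoplasmic actins were by far the more abundant. Actg1 (ENSMUSG00000062825), the gamma cytoplasmic actin, was at 4147 TPM in line 66, 3185 TPM in line 67 and 3300 TPM in line 72, a mean of 3544 TPM ± 526 (SD, n = 3). Actb (ENSMUSG00000029580), the beta cytoplasmic actin, was at 3282, 3242 and 3311 TPM in the same order, 3278 TPM ± 34.9 (SD, n = 3). By summed TPM the pair was level in lines 67 and 72, and Actg1 stood above Actb in line 66 alone (log2 of Actg1 over Actb 0.10 ± 0.20, SD, n = 3). That tie rests on lengths: when each gene's counts were divided by the length of 1 complete transcript, a calculation chosen after seeing the data, Actg1 was above Actb in 3 of 3 lines, by 1.16-fold to 1.52-fold. Actb was among the steadiest genes of the series, since 1.53% of the genes at 10 TPM or more had a narrower range over the lines. Actg1 lies on chromosome 11, and the median of the 698 other genes there stood 0.33 log2 units above the average of lines 67 and 72 in line 66, after the median of all genes was subtracted. By the same measure Actg1 was 0.41 log2 units higher in line 66, and the part of the chromosome in that value was not tested. Of its 9 listed transcripts, Actg1-204 and Actg1-202 carried 58.4% and 39.6% of the TPM. No 31-base word of Actg1-204 is absent from every other Actg1 transcript, so its share rests on how shared reads were divided. Actb-201 carried 81.9% of Actb, and the incomplete model Actb-202, of 536 bases, most of the rest.

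The striated muscle actins followed well below them. Acta1 (ENSMUSG00000031972), the skeletal alpha actin, was at 350 TPM in line 66, 486 TPM in line 67 and 588 TPM in line 72. Actc1 (ENSMUSG00000068614), the cardiac alpha actin, was at 281, 409 and 575 TPM. Both genes were lowest in line 66 and highest in line 72, and Acta1 was above Actc1 in 3 of 3 lines, by 1.25-fold in line 66 but 1.02-fold in line 72, where the order turned with 1 complete transcript length per gene (548 against 573 TPM). The level of Actc1 stood beside heart markers that were nearly all below 1 TPM.

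Among the smooth muscle actins, Acta2 was well expressed and Actg2 was not. Acta2 (ENSMUSG00000035783), the vascular smooth muscle alpha actin, was at 209 TPM in line 66, 292 TPM in line 67 and 581 TPM in line 72, so that by summed TPM it was level with Acta1 and Actc1 in line 72. Actg2 (ENSMUSG00000059430), the enteric smooth muscle actin, was at 0.339, 0.299 and 0.633 TPM, which rests on 14, 16 and 34 estimated counts. Other smooth muscle genes were mixed: Myh11 was near 0, Myocd, the coactivator of smooth muscle genes, was at 0.392 to 0.452 TPM and the calponin Cnn1 at 0.0422 to 0.364 TPM, whereas Tagln was at 49.5 to 103 TPM and Rgs5 at 137 to 356 TPM. Part of the Acta2 level came from Acta2-202, an incomplete 826-base transcript model that took between 38.8% and 45.5% of the gene's TPM but between 18.8% and 23.3% of its counts. With 1 complete transcript length per gene, Acta2 was at 158, 218 and 412 TPM, in the same order of lines, and in line 72 it was then below Acta1 at 548 TPM and Actc1 at 573 TPM.

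**Figure D1:**
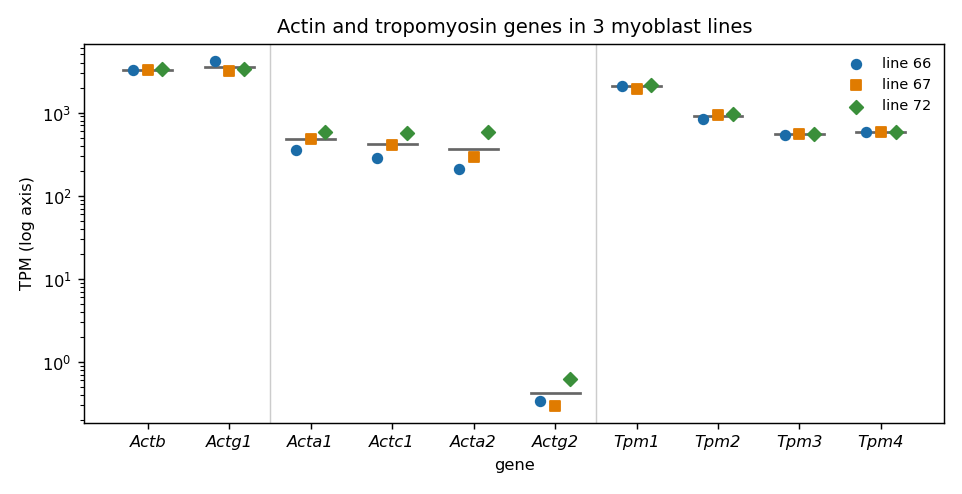
Level of each actin and tropomyosin gene in TPM (log axis) in lines 66, 67 and 72, with the grey bar at the mean of the 3 lines and vertical rules between cytoplasmic actins, muscle actins and tropomyosins. Actb and Actg1 lie between 3185 and 4147 TPM, Acta1, Actc1 and Acta2 between 209 and 588 TPM with line 66 lowest, and Actg2 below 1 TPM.

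Muscle actins were compared with cytoplasmic actins within each line. Their summed level was 841 TPM against 7429 TPM in line 66, 1187 against 6426 TPM in line 67, and 1744 against 6611 TPM in line 72. They thus made up 10.2%, 15.6% and 20.9% of all actin TPM. On the log2 scale the ratio was −3.14, −2.44 and −1.92, a mean of −2.50 ± 0.61 (SD, n = 3), and muscle actins were the lower group in 3 of 3 lines. An exact two-sided sign-flip test gave p = 0.25, the smallest value that 3 lines allow. Striated actins exceeded smooth muscle actins in every line, by log2 ratios of 1.59, 1.62 and 0.999 (mean 1.40 ± 0.35, SD, n = 3, exact sign-flip p = 0.25), with the lowest ratio in line 72, where Acta2 was highest. In bulk RNA fewer cells that express muscle actins and less muscle actin RNA per cell cannot be told apart.

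Over all 10 genes the order of mean levels was Actg1, Actb, Tpm1, Tpm2, Tpm4, Tpm3, Acta1, Actc1, Acta2 and Actg2. The neighbours Actg1 and Actb, Tpm3 and Acta1, and Actc1 and Acta2 did not keep the same order in every line on this scale. Tpm4 was above Tpm3 in 3 of 3 lines, by a mean log2 ratio of 0.09. Much of this order rests on the lengths assigned to each gene. With 1 complete transcript length per gene, Actg1 was above Actb, Actc1 above Acta2, and Tpm4 above Tpm3 in 3 of 3 lines, with mean log2 ratios of 0.37, 0.73 and 0.66. The mean of Tpm2 was then 535 TPM in place of 919 TPM and below Tpm4 in 3 of 3 lines, that of Tpm3 was 370 TPM, below Acta1 at 443 TPM and Actc1 at 420 TPM, and Tpm3 and Acta1 still changed places between lines.

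The lines were then set against each other, with 1 library a line and hence no test. Between lines 66 and 67, 1.19% of the 8428 genes at 10 TPM or more were over 2-fold apart on the log2(TPM + 1) scale, and 0 of the 9 actin and tropomyosin genes at that level were. The share was 1.31% between lines 66 and 72, where 2 of the 9, Actc1 and Acta2, were over 2-fold apart and both were higher in line 72. Between lines 67 and 72 it was 0.866%, with 0 of the 9 genes, although Acta2 was just inside the limit at 1.99-fold. On the same scale the log2 ratio of line 72 over line 66 was 1.47 for Acta2, 1.03 for Actc1 and 0.74 for Acta1, against a median of 0.08 over all genes. Under edgeR's TMM scaling of the counts Actc1 was at 0.98, just inside 2-fold, and Acta2 at 1.32.

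The 3 expressed muscle actins had the same order of lines and the widest ranges of the 9 genes. The range over lines was wider than that of 99.1% of the genes at 10 TPM or more for Acta2, 97.9% for Actc1 and 95.1% for Acta1. For Actg1 it was wider than that of 77.0% of genes. For Tpm4 it was wider than that of 0.202% of genes, and for Tpm3 of 1.58%. Tpm1 and Tpm2 were in between, at 32.4% and 38.6%. Markers of differentiated skeletal muscle had the same order of lines: all 6 were lowest in line 66, and 5 of 6 were highest in line 72. Among the 8428 genes at 10 TPM or more, line 66 was also most often the lowest line, for 47.7%, and line 72 most often the highest, for 45.7%. The share of genes with the whole order was not counted. Among listed genes that act on filament ends and length, 9 of 12 were lowest in line 66 and 10 of 12 highest in line 72. Only 7 of these 12 were at 10 TPM or more in every line, so the shares of all genes are not a matched background. The same counts were 8 and 10 of 15 for cross-linking genes and 5 and 6 of 12 for monomer binding genes. They were 4 and 1 of 8 for nucleation and 5 and 3 of 10 for genes tied to serum response factor. Folding genes gave 1 and 4 of 7. Of the differentiated muscle markers, Tnnc2, a fast troponin subunit, was over 2-fold lower in line 66 at 54.7 TPM than in lines 67 and 72 at 111 and 126 TPM. Of the 6 smooth muscle and pericyte markers, 4 were lowest in line 66 and 4 highest in line 72, all of the latter below 2 TPM, while Rgs5 was at 356 TPM in line 66 and 137 and 172 TPM in lines 67 and 72. The part of these markers in the muscle actin levels was not tested.

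**Figure D2:**
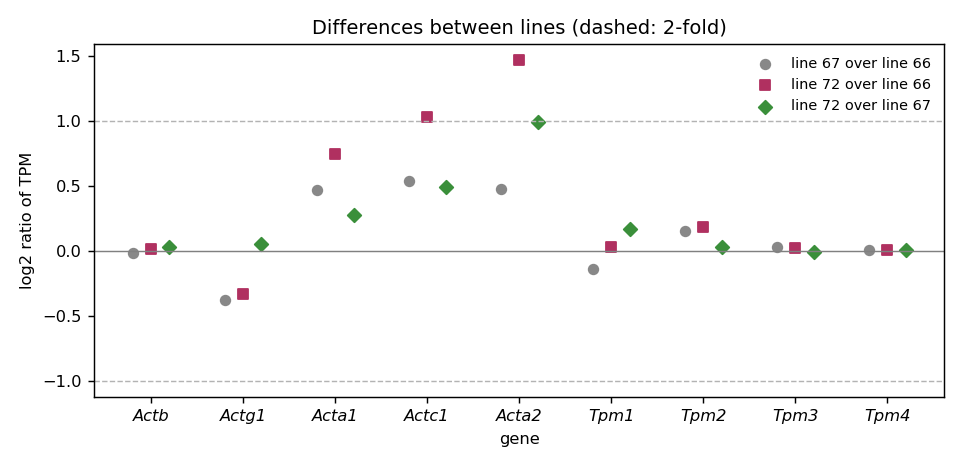
Log2 ratio of TPM between each pair of lines for the 9 genes at 10 TPM or more, with the dashed lines at 2-fold. Acta1, Actc1 and Acta2 lie above 0 in all 3 pairs and reach 1.47 (Acta2, line 72 over line 66), Actg1 lies below 0 in both comparisons with line 66, and Tpm3 and Tpm4 stay within 0.04 of 0.

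By distance over the 3 lines after centring on the log2(TPM + 1) scale, the genes most like Acta2, which had the widest range, were Cth (distance 0.08), C1qtnf3 (0.10) and Ccdc9b (0.12) among 8428 genes. C1qtnf3 was at 14.3, 18.6 and 41.8 TPM in lines 66, 67 and 72. Many profiles are alike over 3 libraries, and none of these genes is an actin or a marker listed here.

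Actin genes are classical targets of serum response factor, which binds the CArG box and is itself held in check by free actin monomer through the coactivators Mrtfa and Mrtfb. Promoter windows of 250 bases before to 50 bases after the start of the gene (RefSeq, build GRCm38.p6) were found for 8 of the 10 genes, 9 windows in all. The CArG box, searched on both strands as CC, then 6 bases that are A or T, then GG, was present in 3 of the 9 windows, those of Acta1, Actc1 and Actg1, against 1.63% of 32851 mouse promoter windows of that length. The 3 matches are shown in capitals with the bases around them, as the matches found in striated and cytoplasmic actin genes. No window was used for Actb or Actg2.
Acta1: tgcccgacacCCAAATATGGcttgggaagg
Actc1: gctaaggcgaCCAAATAAGGcaaggtggca
Actg1: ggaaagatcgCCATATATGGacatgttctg

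They lie on the minus strand at chr8:123894829-123894858, chr2:114052903-114052932 and chr11:120348566-120348595, and the boxes within them begin 73, 47 and 90 bases before the start. The window of Acta2 and the windows of the tropomyosin genes did not hold these letters. The E-box CANNTG, the core of sites bound by MyoD and its relatives, was in 9 of 9 windows, but 72.3% of all windows held it. Srf was at 41.3, 53.3 and 50.3 TPM, lowest in line 66, Mrtfa between 10.2 and 10.6 TPM, and Mrtfb between 12.9 and 14.1 TPM. All 3 were thus expressed in every line. A match in a window is a description of letters and says nothing of binding in these cells.

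Tropomyosin levels were led by Tpm1 (ENSMUSG00000032366), the alpha tropomyosin of fast muscle and heart, at 2113 TPM in line 66, 1921 TPM in line 67 and 2158 TPM in line 72. Tpm2 (ENSMUSG00000028464), the beta tropomyosin, was at 848, 943 and 966 TPM. The 2 remaining genes are known mainly for short cytoskeletal tropomyosins, Tpm3 (ENSMUSG00000027940) also for the slow muscle form. Tpm4 (ENSMUSG00000031799) was at 584, 586 and 589 TPM and Tpm3 at 545, 556 and 553 TPM. Tpm1 carried 50.1% ± 1.92 of all tropomyosin TPM, Tpm2 22.3% ± 1.44, Tpm4 14.2% ± 0.416 and Tpm3 13.4% ± 0.469 (SD, n = 3). Tpm1 exceeded Tpm2, and Tpm2 exceeded Tpm4, in 3 of 3 lines (exact sign-flip p = 0.25 for each, the smallest possible), the second order being the one that turned with 1 transcript length per gene. The actins together were at 1.96 times the summed tropomyosin level, with little spread (log2 ratio 0.97 ± 0.04, SD, n = 3).

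The ends of the tropomyosin transcripts separate striated muscle forms from the others. The last 80 coding bases before the stop codon are shown for the transcripts that carry ends 9a and 9d, 5′ to 3′, with capitals at bases that differ from the same end of Tpm1. The 9a ends of Tpm1, Tpm2 and Tpm3 are as follows.
Tpm1 9a: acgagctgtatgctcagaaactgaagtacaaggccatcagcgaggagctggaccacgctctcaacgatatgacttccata
Tpm2 9a: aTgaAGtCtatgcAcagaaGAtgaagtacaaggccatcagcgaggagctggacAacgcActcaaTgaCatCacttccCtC
Tpm3 9a: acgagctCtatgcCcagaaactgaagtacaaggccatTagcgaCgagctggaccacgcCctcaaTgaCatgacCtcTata

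The 9d ends of Tpm1, Tpm2 and Tpm4 are given in the same way.
Tpm1 9d: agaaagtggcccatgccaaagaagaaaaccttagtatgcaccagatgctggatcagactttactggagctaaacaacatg
Tpm2 9d: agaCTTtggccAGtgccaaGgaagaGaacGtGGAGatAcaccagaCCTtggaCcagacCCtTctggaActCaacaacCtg
Tpm4 9d: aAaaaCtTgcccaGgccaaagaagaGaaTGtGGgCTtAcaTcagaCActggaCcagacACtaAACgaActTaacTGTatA

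The striated end was the better kept of the pair: Tpm1 and Tpm3 had 88.75% of these bases in common at end 9a and 65% at end 9d, and Tpm1 and Tpm2 had 82.5% and 71.25%. Within Tpm1, ends 9a and 9d had 42.5% of bases in common. The coding part of end 9a lies at chr9:67029664-67029742 for Tpm1 and chr4:43515924-43516003 for Tpm2 (minus strand), and at chr3:90091013-90091091 for Tpm3 (plus strand). In the Tpm1 and Tpm3 transcripts shown, exon 9a holds 79 of the 80 bases and the next exon the last one. End 9d lies at chr9:67023362-67023441 for Tpm1, chr4:43514782-43514861 for Tpm2 and chr8:72151742-72151821 for Tpm4.

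Tpm1 RNA coded mostly for long proteins, with exon 1a in 89.3%, 88.7% and 91.2% of its TPM in lines 66, 67 and 72. Its ends were divided. End 9a carried 670 TPM in line 66, 799 TPM in line 67 and 997 TPM in line 72, whereas end 9d carried 1053, 751 and 731 TPM. The striated end was thus 31.7%, 41.6% and 46.2% of Tpm1, lowest in line 66 and highest in line 72 as for the muscle actins, while the gene's total differed by at most 1.12-fold. The log2 ratio of 9a over 9d was −0.65, 0.09 and 0.45, so the more abundant of the ends was not the same in every line. End 9c, mostly Tpm1-210, stayed at 9.35% ± 0.516 and end 9b, in Tpm1-207, at 6.15% ± 0.240 (SD, n = 3).

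Individual transcripts of Tpm1 gave the same picture. Of the 21 listed, 7 carried at least 5% of the gene. Tpm1-205, a long form with exons 2b, 6b and 9a as in striated muscle, was at 557 TPM in line 66, 677 TPM in line 67 and 851 TPM in line 72. Tpm1-213, the long form with exons 6a and 9d, was at 563, 293 and 328 TPM, so line 66 had 1.71 to 1.92 times the level of the others. Tpm1-216, with exons 6b and 9d, was at 312, 314 and 257 TPM, and Tpm1-201, which shares its coding exons with Tpm1-205 but ends in another untranslated part, at 113, 121 and 146 TPM. The short form Tpm1-211, with exon 1b, was at 120, 115 and 82.2 TPM. Exon 6a was carried by Tpm1-213 alone, the other listed 6a transcripts being at 0 in every line, and made up 26.6%, 15.3% and 15.2% of Tpm1. Tpm1-205 and Tpm1-213 hold no 31-base word that is absent from every other Tpm1 transcript, so their values rest on how the counting split shared reads. The same holds for Tpm1-207, Tpm1-210 and Tpm1-211.

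**Figure D3:**
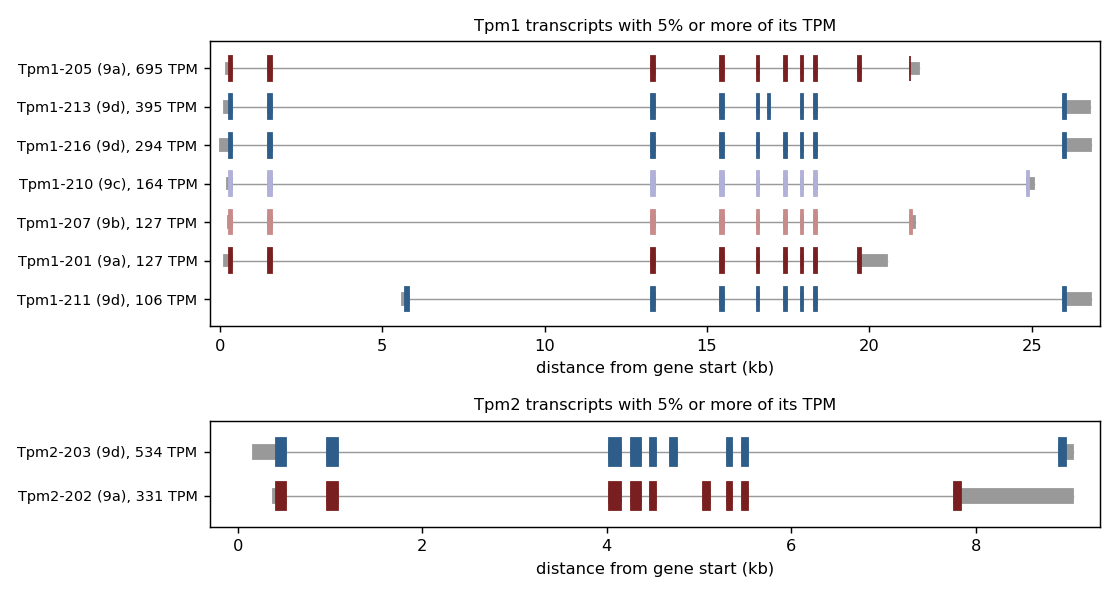
Exons of the Tpm1 and Tpm2 transcripts with at least 5% of the gene's TPM, plotted by distance in kb from the start of the gene, with coding parts as tall boxes colored by end exon (9a dark red, 9b light red, 9c lilac, 9d blue) and untranslated parts as low grey boxes. Mean TPM over the 3 lines is beside each name, and Tpm1-205 (9a) leads at 695 TPM, ahead of Tpm1-213 (9d) at 395 TPM.

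Of the 6 Tpm2 transcripts listed, 2 carried at least 5% of the gene each. Tpm2-203, with exons 6a and 9d as in smooth muscle and nonmuscle cells, was at 559 TPM in line 66, 509 TPM in line 67 and 533 TPM in line 72. Tpm2-202, with exons 6b and 9a as in skeletal muscle, was at 252, 373 and 369 TPM, lowest in line 66. End 9a therefore made up 29.7%, 39.6% and 38.2% of Tpm2 TPM, and it was below end 9d in 3 of 3 lines. The share depends on length, since Tpm2-202 is 2098 bases long and Tpm2-203 1164 bases: of the estimated counts, end 9a had 61.5% ± 6.48 (SD, n = 3).

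The Tpm3 and Tpm4 transcripts with a classed first exon coded almost only for short proteins. For Tpm4 the only coding transcript listed is a short one, so a long form could not be seen. In Tpm3, exon 1b carried 61.8% ± 1.54 of the TPM and exon 1a 1.46% ± 0.644 (SD, n = 3), and most of the rest lay on Tpm3-214, an incomplete model of 459 bases at 167, 187 and 180 TPM. That model took between 30.7% and 33.7% of the gene's TPM. The main complete form, Tpm3-201 with exons 1b and 9d, was at 290, 261 and 271 TPM. Tpm3-202, a short form with the striated end 9a, was at 53.5 TPM in line 66, 72.9 TPM in line 67 and 69.4 TPM in line 72. Among complete transcripts, end 9a was 19.8% ± 3.33 of Tpm3 (SD, n = 3), and it was lowest in line 66 here too. Tpm4-201, the short form with end 9d, was nearly all of Tpm4, at 584, 585 and 589 TPM.

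Over the 4 genes, end 9a carried 978 TPM in line 66, 1250 TPM in line 67 and 1440 TPM in line 72. These are 23.9%, 31.2% and 33.8% of all tropomyosin TPM, and line 66 was lowest in each of Tpm1, Tpm2 and Tpm3. End 9d carried 60.8%, 52.7% and 49.96%. Long forms with exon 1a were 66.0%, 64.8% and 67.5%, and short forms 26.4%, 26.6% and 24.4%. The size classes thus differed less between lines than the ends did. Within Tpm2 and Tpm4, however, the size class could not vary, since the complete coding transcripts listed for each gene are all of the same class. The ends of Tpm2 could vary.

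**Figure D4:**
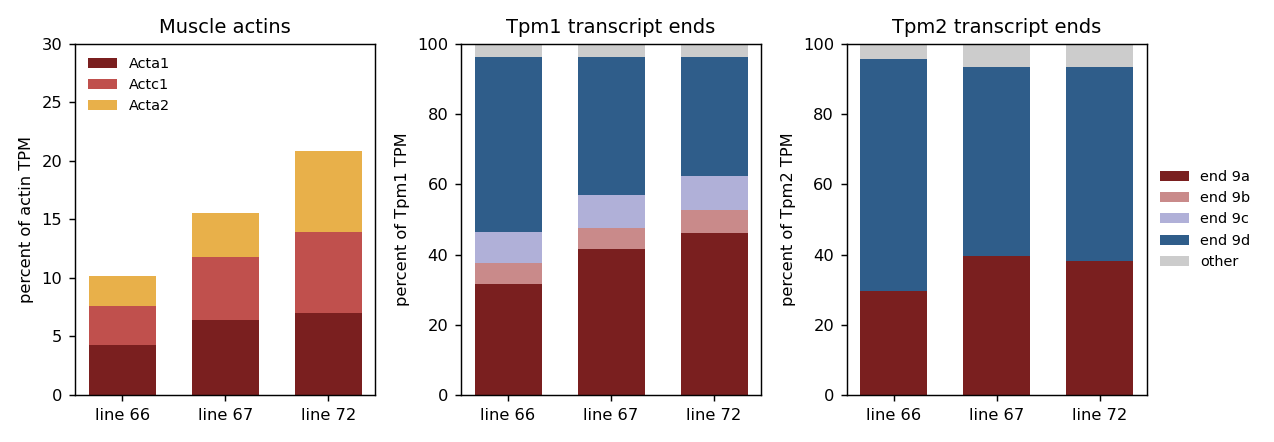
Left, share of all actin TPM from Acta1, Actc1 and Acta2 in each line. Middle and right, share of Tpm1 and of Tpm2 TPM by end exon, with grey for transcripts given no end. The muscle actins reach 10.2%, 15.6% and 20.9% in lines 66, 67 and 72, and end 9a of Tpm1 31.7%, 41.6% and 46.2%.

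Genes that act on actin were counted from lists of known function, beside a background of 31.5% of the 25510 detected genes at 10 TPM or more in every line. Nothing particular to a list is read from these counts. Among genes that set filament ends and length, 7 of 12 were at 10 TPM or more in every line, led by the capping protein subunits Capzb, Capza2 and Capza1 at means of 370, 269 and 115 TPM. Neb, nebulin itself, was at 61.8, 116 and 81.5 TPM, and Nebl, its relative in the Z-disc, at 41.1 TPM in line 66, 20.5 TPM in line 67 and 21.8 TPM in line 72. Of the tropomodulins, which cap the pointed end over tropomyosin, Tmod3, the widely expressed one, was at 52.7 TPM and the skeletal form Tmod4 at 0.220 TPM.

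Monomer binding and turnover genes were all expressed, with 12 of 12 at 10 TPM or more in every line and 0 over 2-fold apart in a pair of lines, beside the shares of all genes given above for each pair. The monomer-sequestering thymosin Tmsb10 (mean 4754 TPM), profilin Pfn1 (1770 TPM) and the severing protein Cfl1 (1690 TPM) led them, so Tmsb10 RNA was above that of either cytoplasmic actin. Among nucleators, 7 of 8 were at that level, led by the Arp2/3 subunits Arpc2, Actr3 and Arpc3 (451, 392 and 204 TPM).

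Cross-linking and decorating proteins gave 12 of 15 genes at 10 TPM or more in every line, with Cnn3, a calponin (716 TPM), Cald1, caldesmon (519 TPM), and Flna, a filamin (464 TPM), at the top. In this list Actn2, the alpha actinin of striated Z-discs, was at 30.5, 52.0 and 65.5 TPM, over 2-fold higher in line 72 than in line 66. Tagln, a smooth muscle protein, was at 61.0, 49.5 and 103 TPM, over 2-fold higher in line 72 than in line 67. Genes regulated by or acting with serum response factor were at this level in 8 of 10, with Ccn1, Vcl and Fhl1 the highest at 219, 182 and 107 TPM, and Fhl1, at 122, 49.4 and 149 TPM, was over 2-fold lower in line 67 than in either of the others. Of the folding and modification genes matched, 6 of 7 were at this level, led by the chaperonin subunits Cct2, Cct5 and Cct3 at 639, 419 and 359 TPM, and Setd3, the actin histidine methyltransferase, was at 68.4, 77.8 and 92.6 TPM.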

How the data were processed

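Per the labels, poly-A RNA was made into stranded libraries, and the submitters' processing notes name bcl2fastq 2.20, fastp 0.20, kallisto 0.46.1 and build GRCm39. The deposited tables give, for 121798 transcripts, a length, an estimated count and a TPM value, both as the authors' quantification wrote them. Estimated counts need not be whole, and reads shared by transcripts are divided between them. Transcript names were matched to GENCODE M21 (GRCm38), which gave the genes, exons and coordinates printed, since the tables hold none. In all, 1112 transcripts, with at most 0.535% of a library's counts, had no match. Of the 75 transcripts of the 10 genes, 14 were at 0 in every line, 25 carried 5% or more of their gene and 2, both of Tpm4, had another length in M21.

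TPM and counts were summed per gene (Python 3.11.15, pandas 2.3.3). Levels were compared within a line as log2 ratios, tested by an exact two-sided sign-flip test over 3 lines. Lines were compared on log2(TPM + 1) where the average reached 10 TPM, at 2-fold. Counts rounded to whole numbers were scaled with edgeR 4.0.16 (TMM) and DESeq2 1.42.0 (size factors) as alternatives, with no count test, since all libraries are in 1 group. The code for the call was tested on simulated counts with counting noise only, which does not cover variation between lines. Whether the lines came from separate animals is not stated, so the p-values measure only the spread between these samples. Tropomyosin exons were classed by their order in the genome.

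Named were the 10 genes, transcripts from those with 5% or more of a gene, the 3 highest of each list of genes acting on actin, any listed gene or marker over 2-fold apart, and the 3 genes most like the member with the widest range. Neb, Nebl, Tmod3, Tmod4, Lrrc58, Srf, Mrtfa, Mrtfb, Setd3, Cnn1, Myh11, Myocd, Nkx2-5, Nppa, Lum and Dpt were named outside that rule after their values were seen. The genes and lists were chosen with earlier results of these data known. Actmap was not matched.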

Additional observations from a re-analysis of the deposited data

How the results depend on the processing

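No paired analysis was possible because lines 66, 67 and 72 make up 1 group with no second group to pair. The log2 ratios of muscle over cytoplasmic and of striated over smooth muscle actins kept their direction under every alternative tried: the first was −2.97 with Acta1 and Actc1 alone and −2.78 with CPM in place of TPM, and lay between −2.79 and −2.18 when each line was left out, and the second between 1.29 and 1.60. Of 110 values for levels and shares of single genes, 97 stayed within 1 SD over the lines. The leave-one-out values among them (30 levels, 18 actin shares and 12 tropomyosin shares) could not fall outside it, so they carry no information here. With CPM, 4 of 10 levels, 6 of 6 actin shares and 2 of 4 tropomyosin shares stayed within 1 SD. With 1 transcript length per gene, 6 of 10 levels did. Of 18 counts of members over 2-fold apart, 14 were equal. The exon 1a share of Tpm1 became 87.7% by estimated counts and 93.2% over complete transcripts, that of Tpm2 98.1% and 100%, and that of Tpm3 2.31% over complete transcripts. For Tpm2 the 100% was fixed in advance, since every complete coding transcript listed for it begins with exon 1a. The 9a share became 61.5% by counts for Tpm2, and 17.5% by counts and 19.8% over complete transcripts for Tpm3. Genes over 2-fold apart in the pairs 66 and 67, 66 and 72, and 67 and 72 numbered 264, 273 and 217 with a minimum of 1 TPM, 289, 295 and 239 with no minimum, and 435, 437 and 280 at 1.5-fold. Acta1 joined Actc1 and Acta2 at 1.5-fold between lines 66 and 72, and Acta2 was past 1.5-fold between lines 67 and 72. Under TMM or DESeq2 scaling, Acta2 alone was past 2-fold between lines 66 and 72. Transcript shares carry an assignment error that the tables do not give, and with 1 library a line no error within a line is known.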
